A study of Antheraea pernyi with 6 samples.

Results

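Glutathione S-transferases and the antioxidant enzymes that work beside them were followed in adult antennae of the Chinese oak silkmoth, Antheraea pernyi. The members were the 53 genes, of 16458 in the deposited table, whose best-hit description holds glutathione, thioredoxin, peroxiredoxin, superoxide dismutase or catalase. Of these, 19 are glutathione S-transferases by name and 34 are other enzymes or proteins. Antennal mRNA was sequenced in 6 libraries, 3 labelled male and 3 labelled female, with no other treatment or genotype in the labels. The labels give no strain, no age beyond adult and no number of animals per library, so p-values reflect only how far libraries of a label differ, and that spread may be partly technical.

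Glutathione S-transferases join the tripeptide glutathione to electrophilic compounds, which makes them more soluble and easier to export. Insects carry cytosolic classes named delta, epsilon, sigma, theta, omega and zeta, of which delta and epsilon are best known from insecticide breakdown, and membrane-bound microsomal forms of separate origin. In moth antennae, members of the family are candidates for clearing odorants and plant volatiles from the sensilla. Superoxide dismutases turn superoxide into hydrogen peroxide, and catalase, peroxiredoxins and their electron donor thioredoxin remove that peroxide.

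Values are FPKM, read counts scaled to gene length and library size, so levels of different genes can be set side by side. Library totals lay between 9392242 and 9606755 reads for the male-labelled libraries and between 10851262 and 11180175 for the female-labelled ones, as worked out from the smallest steps between FPKM values. Antennal genes were present. Of 15 genes with antennal names, all tested, the test described below gave 8 higher and 4 lower in male-labelled libraries. This stood beside 27.8% and 9.03% of all tested genes. After the rescaling described there, 5 were higher and 5 lower, beside 14.3% and 17.7%. General odorant-binding proteins were among the higher ones: GWHGABGR012186 averaged 10391 ± 124 FPKM in male-labelled and 5239 ± 133 FPKM in female-labelled libraries (SD, n = 3 each), and GWHGABGR012194 averaged 17546 ± 789 and 11568 ± 297 FPKM. Among the lower ones, the odorant receptor coreceptor (putative chemosensory receptor 2, GWHGABGR013501) averaged 176 ± 1.58 FPKM in male-labelled and 465 ± 5.89 FPKM in female-labelled libraries (SD, n = 3 each). Pheromone-binding protein 1 (GWHGABGR012196), of a family that is male-biased in many moths, averaged 1273 ± 90.6 FPKM in male-labelled and 92516 ± 2089 FPKM in female-labelled libraries. Exchanged labels and a true difference between the sexes cannot be told apart, so every direction is one between labels. Names matched for hemocytes (8 genes) summed to between 169 and 193 FPKM in male-labelled and between 154 and 161 FPKM in female-labelled libraries. Those for fat body (53 genes) gave 1305 to 1365 and 1211 to 1265 FPKM, and those for muscle (24 genes) 156 to 179 and 133 to 142 FPKM, with the male-labelled range first. Of these genes, 4 for hemocytes, 20 for fat body and 8 for muscle fell under the filter on low values described below. The part of these lists in the results was not tested.

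Genes with a mean of at least 0.5 FPKM were tested with limma on log2(FPKM + 1), with a Benjamini-Hochberg adjusted p under 0.05 as the threshold. Log2 fold changes are male-labelled minus female-labelled and understate the change of low genes. Of 11590 genes tested, 36.9% passed, 27.8% higher and 9.03% lower in the male-labelled libraries. This split moved with scaling. Pheromone-binding protein 1 (GWHGABGR012196) alone held 0.0952 ± 0.00630% of the total FPKM of male-labelled and 6.86 ± 0.123% of that of female-labelled libraries (SD, n = 3 each). Over all tested genes the log2 fold change had a median of 0.23 as deposited. It was 0.02 after median-of-ratios rescaling, which divides each library by the median ratio of its genes to their mean over libraries. After rescaling, 32.0% of 11548 genes passed, 14.3% higher and 17.7% lower in the male-labelled libraries. Values below are on the deposited scale, and the rescaled value is given where it changes the call.

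Taken as a sum, the transferase genes held 0.383 ± 0.00496% of total FPKM in the male-labelled and 1.29 ± 0.00963% in the female-labelled libraries (SD, n = 3 each). Summed levels were 5212, 5076 and 5100 FPKM in male-labelled libraries, against 17483, 17222 and 17336 FPKM in female-labelled ones. Every male-labelled sum thus lay below every female-labelled one, with a ratio of 3.38 between the female-labelled and male-labelled means. A single gene, the D7-like transferase, held between 55.8% and 57.9% of the sum in male-labelled and between 72.6% and 73.5% in female-labelled libraries. Without it the sums were 2197, 2242 and 2163 FPKM against 4637, 4713 and 4718 FPKM, a ratio of 2.13 in the same direction. In bulk tissue, fewer cells that express a gene and less of its RNA per cell cannot be told apart.

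**Figure D1:**
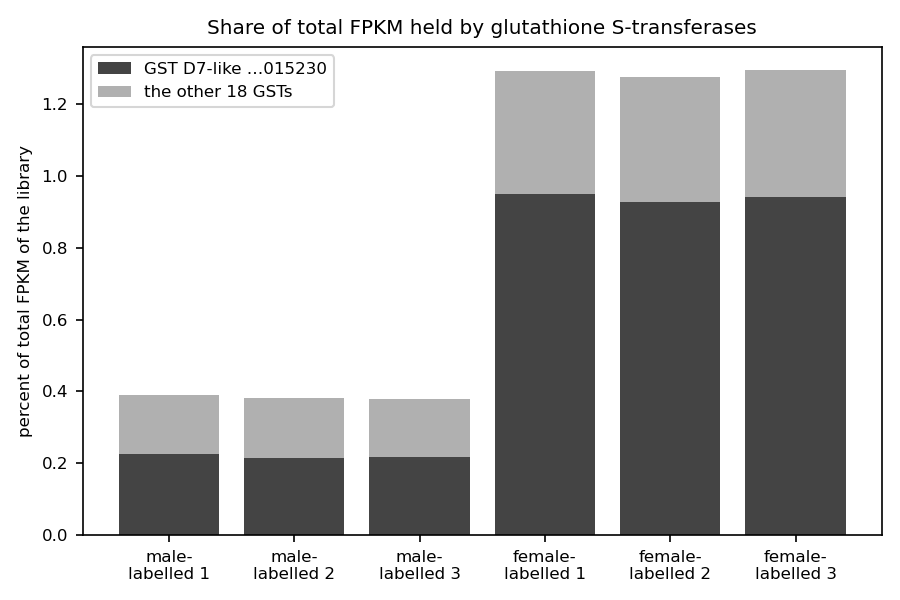
Percent of each library's total FPKM held by glutathione S-transferases, as stacked bars for the 3 male-labelled and the 3 female-labelled libraries. The dark part is the D7-like gene, about 0.219% in male-labelled and 0.939% in female-labelled libraries on average, and the light part is the other 18 genes.

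Of the 19 transferase genes, 16 passed the filter on low values, 8 of them lower and 3 higher in the male-labelled libraries, while 5 did not pass the test. The share called was 68.8%, beside 36.9% of all tested genes. After rescaling, 10 of 15 were lower and 1 was higher, beside 32.0% of all tested genes called in either direction. The FPKM of the groups did not overlap for 13 of the 16, beside 50.1% of all tested genes (37.9% higher and 12.1% lower in the male-labelled libraries). The same 8 were lower on both scales, and 1 was higher on both, while 9.08% of the 11534 genes tested on both scales were lower on both and 14.3% higher on both. Their median log2 fold change was -0.20 against 0.23 for all genes, and -0.71 against 0.02 after rescaling.

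The D7-like gene (GWHGABGR015230), named after a delta-class enzyme of the fly, was the most abundant transferase in every library. It had 3015, 2834 and 2937 FPKM in male-labelled libraries, against 12846, 12509 and 12618 FPKM in female-labelled ones. The groups did not overlap, and the male-labelled mean was lower by a log2 fold change of -2.11 (SE 0.03, limma adjusted p = 2.77e-10). Its value rests on 54730 reads in the male-labelled and 274938 in the female-labelled libraries, over a recovered coding length of 657 bases. A 1-like gene (GWHGABGR008285) moved the same way, with 268.1, 267.9 and 254.4 FPKM in male-labelled and 822.1, 836.2 and 805.4 FPKM in female-labelled libraries (log2 fold change -1.64 with SE 0.04, limma adjusted p = 7.5e-09).

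Genes with the symbol GST2 split. Members GWHGABGR016652 to GWHGABGR016656 carry consecutive identifiers, that symbol and best hits that are either 2-like or sigma, and 2 of them gave the largest changes of the family. GWHGABGR016653 had 45.7, 48.4 and 49.5 FPKM in male-labelled libraries, against 1408, 1421 and 1423 FPKM in female-labelled ones. Its female-labelled mean was 29.6 times the male-labelled mean (log2 fold change -4.86 with SE 0.04, limma adjusted p = 4.49e-11). Libraries of a label lay close together and far from those of the other label.

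GWHGABGR016652 had 0, 3.56 and 2.71 FPKM in male-labelled libraries, against 27.9, 78.0 and 85.5 FPKM in female-labelled ones. Here female-labelled replicate 1 lay well under the other female-labelled libraries, but still above every male-labelled one (log2 fold change -4.50 with SE 0.60, limma adjusted p = 0.000547). The gene rests on 14 reads in the male-labelled and 493 in the female-labelled libraries, over a recovered length of 234 bases. Pooled over libraries this is 2.10 FPKM (exact 95% Poisson interval 1.15 to 3.53, counting error only) in the male-labelled and 63.7 FPKM (58.2 to 69.6) in the female-labelled set. A short model beside longer ones of like name could share reads with them, so its level is uncertain.

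The most abundant gene named sigma in this run, GWHGABGR016654, had 473, 461 and 471 FPKM in male-labelled libraries, against 415, 437 and 446 FPKM in female-labelled ones. Its sign depended on the scale: the log2 fold change was 0.12 (SE 0.04, limma adjusted p = 0.0433) as deposited and -0.14 (limma adjusted p = 0.0225) after rescaling. The deposited-scale call was also lost without female-labelled replicate 1 (limma adjusted p = 0.135) or 2 (0.0826), and without male-labelled replicate 1 (0.115), 2 (0.0545) or 3 (0.102). GWHGABGR016655, also named sigma, had 8.48, 5.25 and 4.65 FPKM in male-labelled and 12.7, 12.1 and 15.4 FPKM in female-labelled libraries (log2 fold change -1.04 with SE 0.21, limma adjusted p = 0.00504). GWHGABGR016656 was near the filter at 0.702 ± 0.28 and 0.319 ± 0.113 FPKM (male-labelled and female-labelled, SD, n = 3 each), with 19 and 10 reads, and did not pass (log2 fold change 0.36); it was under the filter after rescaling. The log2 fold changes of these 5 genes thus ranged from -4.86 to 0.36 on the deposited scale.

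**Figure D2:**
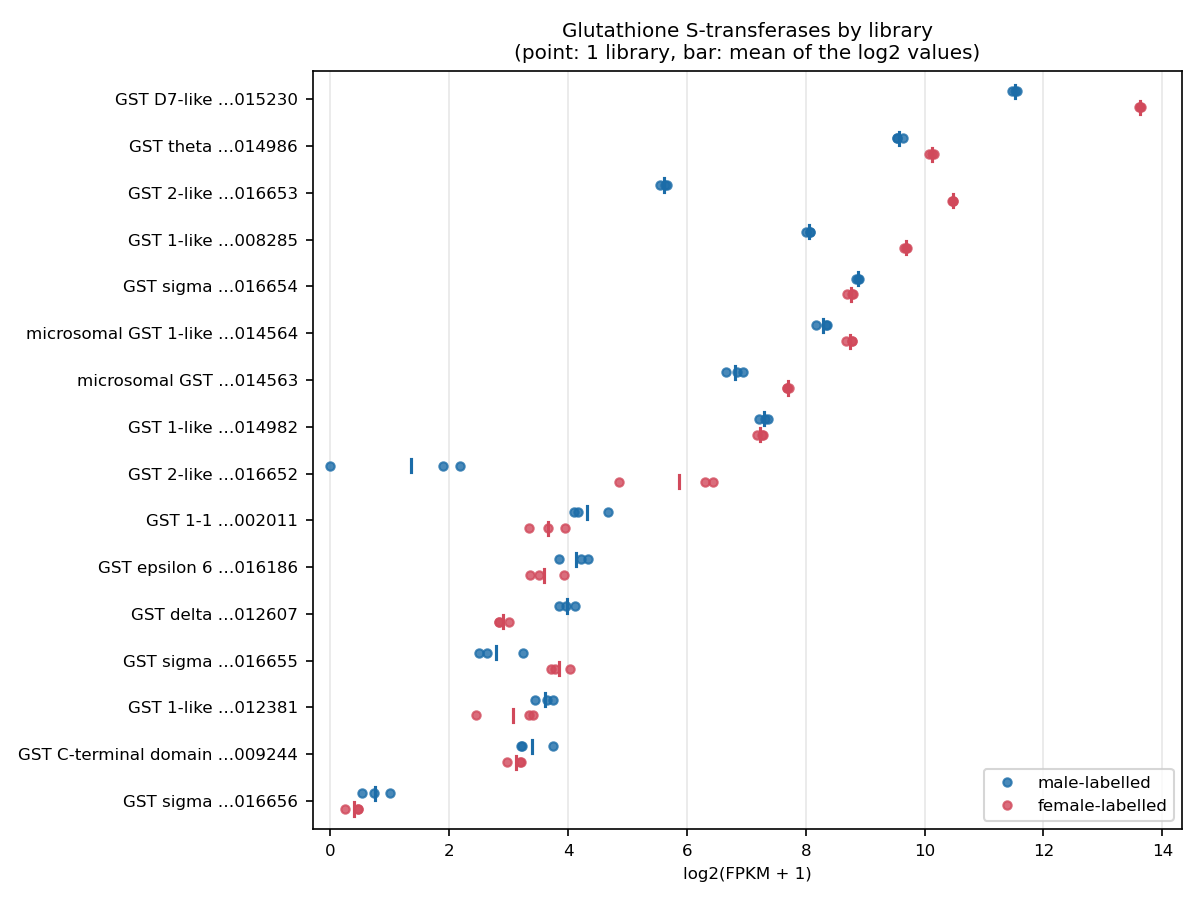
Level of the 16 tested glutathione S-transferases as log2(FPKM + 1), most abundant at the top, with male-labelled libraries drawn above female-labelled ones. Points are libraries and bars their mean. The D7-like gene and the more abundant 2-like gene show groups far apart, and the other 2-like gene shows a wide spread among the female-labelled libraries.

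The theta and microsomal genes changed less. Theta (GWHGABGR014986) had 741, 790 and 745 FPKM in male-labelled libraries, against 1141, 1080 and 1111 FPKM in female-labelled ones (log2 fold change -0.55 with SE 0.04, limma adjusted p = 7.83e-06). Of the pair of microsomal genes, which also have consecutive identifiers, GWHGABGR014563 averaged 111.9 ± 11.1 FPKM in male-labelled and 206.2 ± 3.04 FPKM in female-labelled libraries (SD, n = 3 each; log2 fold change -0.88, limma adjusted p = 2.6e-05). Its neighbour by number, the 1-like gene GWHGABGR014564, averaged 313 ± 20.7 and 428 ± 17.6 FPKM (male-labelled and female-labelled; log2 fold change -0.46, limma adjusted p = 0.000332). All 3 genes had groups that did not overlap, and all were lower on both scales.

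Besides the sigma gene above, 2 transferases of low level were higher in the male-labelled libraries. Glutathione S-transferase delta (GWHGABGR012607) had 16.4, 14.7 and 13.3 FPKM in male-labelled libraries, against 6.13, 6.18 and 7.08 FPKM in female-labelled ones. It rose by a log2 fold change of 1.08 (SE 0.13, limma adjusted p = 0.000317) and stayed past the test after rescaling (0.85, limma adjusted p = 0.00131). The 1-1 gene GWHGABGR002011 had 24.6, 16.9 and 16.2 FPKM in male-labelled and 11.7, 14.5 and 9.13 FPKM in female-labelled libraries. Its call (log2 fold change 0.66, limma adjusted p = 0.0318) was lost after rescaling (0.42, limma adjusted p = 0.141), and also without male-labelled replicate 1 (0.0954), female-labelled replicate 1 (0.0727) or female-labelled replicate 3 (0.0988).

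The other 4 tested transferases did not pass on the deposited scale. A 1-like gene (GWHGABGR014982) averaged 156.5 ± 8.01 FPKM in male-labelled and 149.9 ± 5.68 FPKM in female-labelled libraries (log2 fold change 0.06, limma adjusted p = 0.422), and was lower after rescaling (-0.20, limma adjusted p = 0.0238). Epsilon 6 (GWHGABGR016186) averaged 16.7 ± 2.95 and 11.3 ± 2.62 FPKM (0.53, limma adjusted p = 0.0522), with the male-labelled mean first. It passed without female-labelled replicate 1 (limma adjusted p = 0.0203) or male-labelled replicate 2 (0.0302), and with the replicate number as a block (0.0204). Another 1-like gene (GWHGABGR012381) had 12.4, 11.5 and 9.92 FPKM in male-labelled libraries, against 4.46, 9.62 and 9.20 FPKM in female-labelled ones, where replicate 1 was low (0.54, limma adjusted p = 0.125). The C-terminal domain protein GWHGABGR009244 is related by sequence name and may not be an enzyme of the family; it averaged 9.71 ± 2.39 and 7.75 ± 0.815 FPKM (0.27, limma adjusted p = 0.265). The 3 transferases under the filter (GWHGABGR008288, GWHGABGR012297 and GWHGABGR018649) had at most 0.692 FPKM in any library.

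What the transferases share beyond their names was taken from the annotation columns and the recovered lengths. Of the 53 members, 16 carry the deposited gene ontology term for glutathione transferase activity and 23 the deposited pathway Glutathione metabolism. That pathway is not limited to transferases, since glutathione synthetase (GWHGABGR018425) and both cyclotransferases also carry it. Among the transferases, the C-terminal domain protein GWHGABGR009244 carries neither the term nor the pathway. Lengths of the 15 transferases with more than 30 reads lay between 234 and 1563 bases, with a median of 651. The D7-like, delta, theta and 1-like genes GWHGABGR012381 and GWHGABGR014982 were 651 or 657 bases long, and the microsomal pair 453 and 450 bases.

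**Figure D3:**
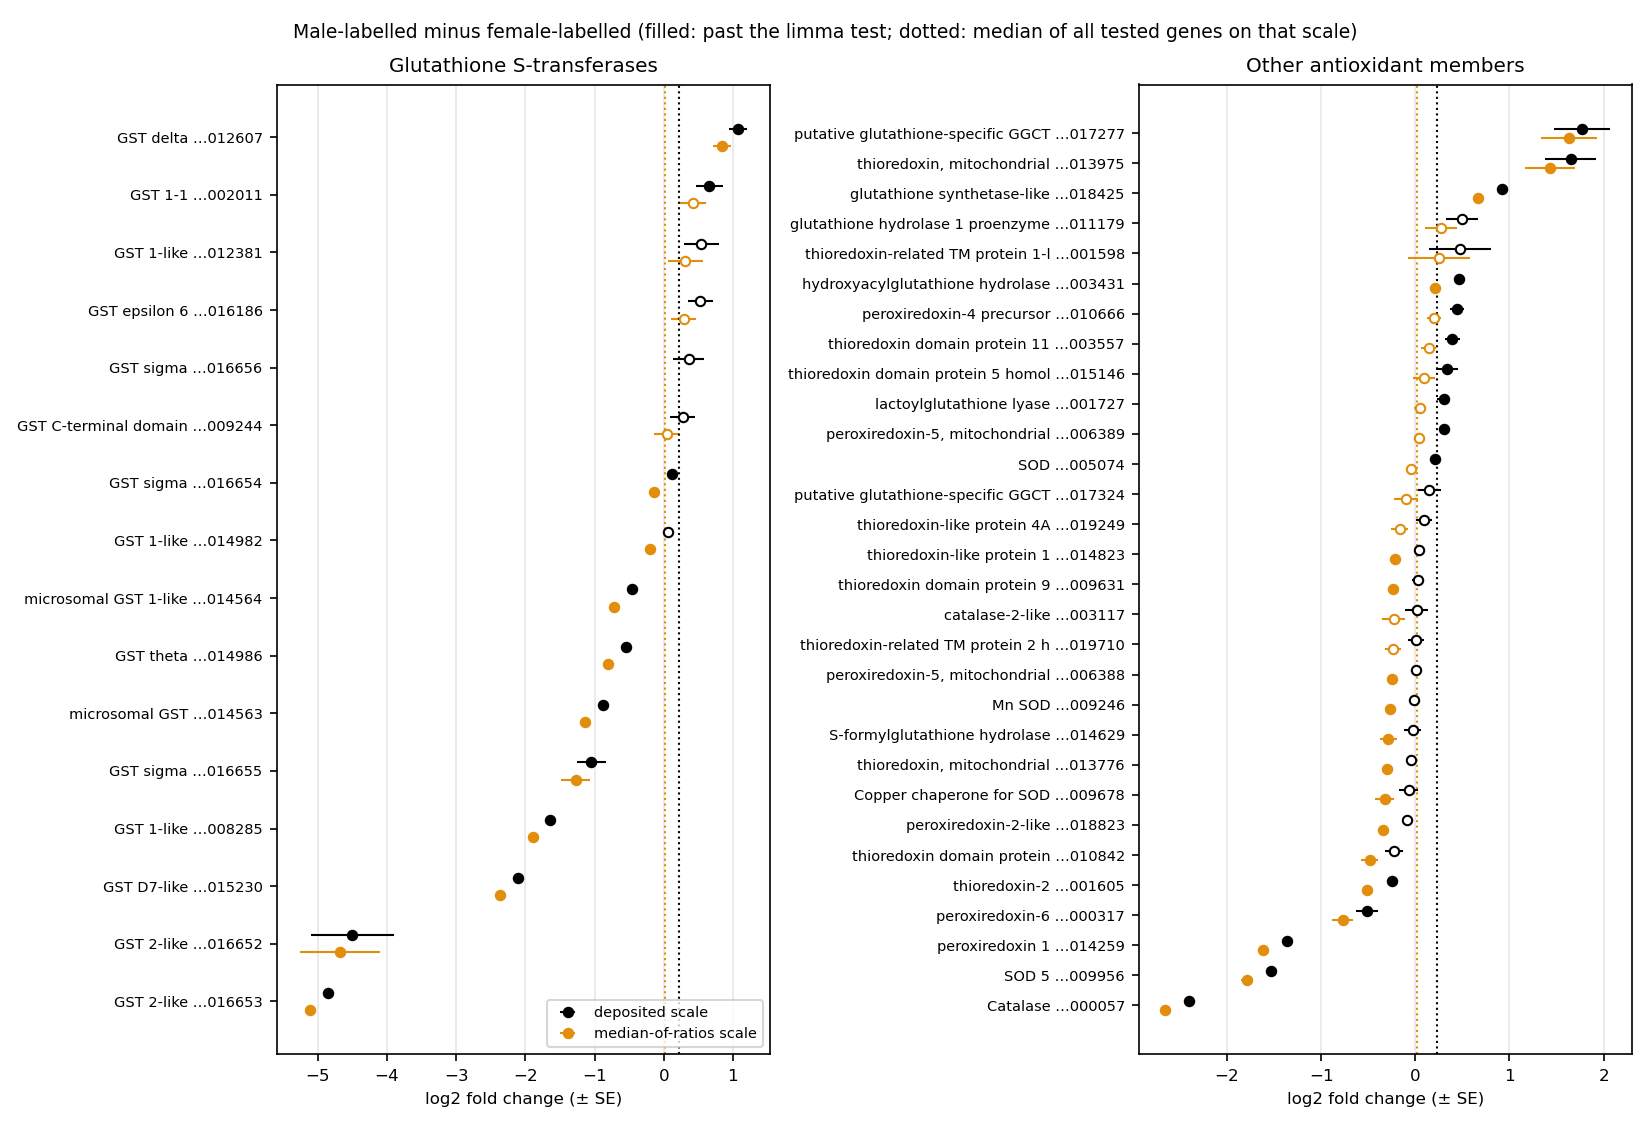
Log2 fold change (male-labelled minus female-labelled) with its SE for the tested transferases (left) and the other antioxidant members (right), on the deposited scale (black) and after median-of-ratios rescaling (orange). Filled points passed the limma test, and dotted lines are the median of all tested genes, 0.23 and 0.02. Catalase and the 2-like transferases lie farthest to the left.

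Of the 34 other members, 30 were tested, and 10 were higher, 5 lower and 15 not past the test in the male-labelled libraries. Thus 15 of 30 were called, beside 36.9% of all tested genes (27.8% higher and 9.03% lower). After rescaling 4 were higher and 14 lower, beside 14.3% and 17.7% of all tested genes. The 5 lower genes were lower on both scales (catalase, superoxide dismutase 5, peroxiredoxin 1, peroxiredoxin-6 and thioredoxin-2). Higher on both were 4 genes (a glutathione-specific cyclotransferase, a mitochondrial thioredoxin, glutathione synthetase and hydroxyacylglutathione hydrolase). Of all genes tested on both scales, 9.08% were lower on both and 14.3% higher on both. The median log2 fold change of the 30 members was 0.03 against 0.23 for all genes, and -0.22 against 0.02 after rescaling. Summed, the 34 members averaged 0.9802 ± 0.0125% of total FPKM in male-labelled and 1.17 ± 0.00662% in female-labelled libraries (SD, n = 3 each). In FPKM the sums averaged 13112.5 in male-labelled and 15824.9 in female-labelled libraries. Thioredoxin-2 alone gave 7072 and 8417 FPKM of these, and catalase GWHGABGR000057 gave 267 and 1413 FPKM. The difference in the sum thus leans on these genes and does not stand for most members.

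Superoxide dismutases come first in the chain. The most abundant (GWHGABGR005074, best hit in Antheraea yamamai) had 1628, 1531 and 1659 FPKM in male-labelled libraries, against 1383, 1404 and 1372 FPKM in female-labelled ones. Its log2 fold change was 0.21 (SE 0.03, limma adjusted p = 0.00168) as deposited and -0.05 (limma adjusted p = 0.294) after rescaling. Superoxide dismutase 5 (GWHGABGR009956, symbol SOD1) had 178, 162 and 155 FPKM in male-labelled libraries, against 473, 469 and 495 FPKM in female-labelled ones. It fell by 1.53 on the log2 scale (SE 0.06, limma adjusted p = 1.37e-07), with groups that did not overlap. The manganese enzyme (GWHGABGR009246), which works in mitochondria, averaged 386 ± 9.08 FPKM in male-labelled and 389 ± 11.4 FPKM in female-labelled libraries and did not pass as deposited (-0.01, limma adjusted p = 0.848). After rescaling it was lower (-0.27, limma adjusted p = 0.000987). The copper chaperone for superoxide dismutase (GWHGABGR009678), which delivers copper to the enzyme, did not pass as deposited either (52.3 ± 7.30 and 54.7 ± 2.24 FPKM, male-labelled first; -0.07), and was lower after rescaling (-0.33, limma adjusted p = 0.0364).

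Catalase gave the largest fall outside the transferases. GWHGABGR000057 had 266.7, 266.8 and 266.1 FPKM in male-labelled libraries, against 1431, 1395 and 1413 FPKM in female-labelled ones, a female-labelled mean 5.30 times the male-labelled one. The groups stood far apart with little spread within them (log2 fold change -2.40 with SE 0.03, limma adjusted p = 2.69e-10; 22133 and 136367 reads in male-labelled and female-labelled libraries). A second gene, catalase-2-like (GWHGABGR003117), was much lower and did not pass (17.7 ± 1.20 FPKM in male-labelled and 17.6 ± 2.24 FPKM in female-labelled libraries, 0.01, limma adjusted p = 0.94). The remaining 2 catalase-like genes were under the filter, with at most 2 reads in any library.

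Peroxiredoxins reduce peroxides through a reactive cysteine. Peroxiredoxin 1 (GWHGABGR014259) had 209, 210.8 and 213.6 FPKM in male-labelled libraries, against 555, 538 and 537 FPKM in female-labelled ones (log2 fold change -1.36 with SE 0.04, limma adjusted p = 1.57e-08). Peroxiredoxin-6 (GWHGABGR000317) had 96.2, 81.4 and 116 FPKM in male-labelled and 144, 129 and 144 FPKM in female-labelled libraries (-0.52, SE 0.12, limma adjusted p = 0.00873). Both pairs of groups did not overlap. The pair of genes with a mitochondrial peroxiredoxin-5 hit and consecutive identifiers differed. GWHGABGR006388 and GWHGABGR006389 had short recovered lengths of 237 and 288 bases, and whether they are parts of 1 gene was not tested. GWHGABGR006389 was higher as deposited (495 ± 26.8 and 401 ± 6.80 FPKM, male-labelled mean first; 0.30, limma adjusted p = 0.00101) but not after rescaling (0.04). The more abundant GWHGABGR006388 did not pass (1047 ± 50.6 and 1039 ± 24.8 FPKM, 0.01), and was lower after rescaling (-0.25, limma adjusted p = 0.00235). Peroxiredoxin-4 (GWHGABGR010666), of the secretory pathway, was higher as deposited (52.1 ± 3.81 FPKM in male-labelled, 37.8 ± 0.624 FPKM in female-labelled libraries; 0.45, limma adjusted p = 0.00194) and did not pass after rescaling (0.19, limma adjusted p = 0.0765). Peroxiredoxin-2-like (GWHGABGR018823) averaged 113 ± 1.06 and 120 ± 9.25 FPKM, male-labelled first, and did not pass as deposited (-0.08), but was lower after rescaling (-0.34, limma adjusted p = 0.00272).

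Thioredoxins supply electrons to peroxiredoxins and other targets. Thioredoxin-2 (GWHGABGR001605), the most abundant member in male-labelled libraries and next to the D7-like transferase in female-labelled ones, had 7229, 6967 and 7020 FPKM in male-labelled libraries, against 8579, 8423 and 8250 FPKM in female-labelled ones. The difference was small but larger than the spread (log2 fold change -0.25 with SE 0.02, limma adjusted p = 6.43e-05). A low gene with a mitochondrial thioredoxin hit (GWHGABGR013975) had 19.8, 10.8 and 9.49 FPKM in male-labelled libraries, against 4.17, 2.67 and 3.39 FPKM in female-labelled ones (1.65, SE 0.27, limma adjusted p = 0.00167), resting on 165 and 49 reads. The more abundant mitochondrial thioredoxin (GWHGABGR013776) did not pass as deposited (294 ± 19.5 FPKM in male-labelled and 302 ± 13.6 FPKM in female-labelled libraries, -0.04), and was lower after rescaling (-0.30, limma adjusted p = 0.00262).

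Other proteins that carry a thioredoxin fold include folding helpers of the endoplasmic reticulum. Domain-containing protein 11 (GWHGABGR003557) was higher as deposited (29.7 ± 1.26 and 22.4 ± 0.415 FPKM, male-labelled first; 0.39, limma adjusted p = 0.00578). So was the protein 5 homolog (GWHGABGR015146, 22.3 ± 1.56 and 17.4 ± 2.23 FPKM; 0.34, limma adjusted p = 0.0489). Neither passed after rescaling (0.14 and 0.09), and the call of the protein 5 homolog was also lost without each of 5 libraries, with an adjusted p of up to 0.142. The other 6 tested thioredoxin-named genes did not pass as deposited, with log2 fold changes between -0.23 and 0.48. After rescaling 3 of them were lower (GWHGABGR009631 at -0.23, GWHGABGR010842 at -0.48 and GWHGABGR014823 at -0.22). The 0.48 belonged to transmembrane protein 1-like (GWHGABGR001598), where female-labelled replicate 1 again lay low (7.20, 7.71 and 7.16 FPKM in male-labelled, 2.34, 7.78 and 6.38 FPKM in female-labelled libraries).

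**Figure D4:**
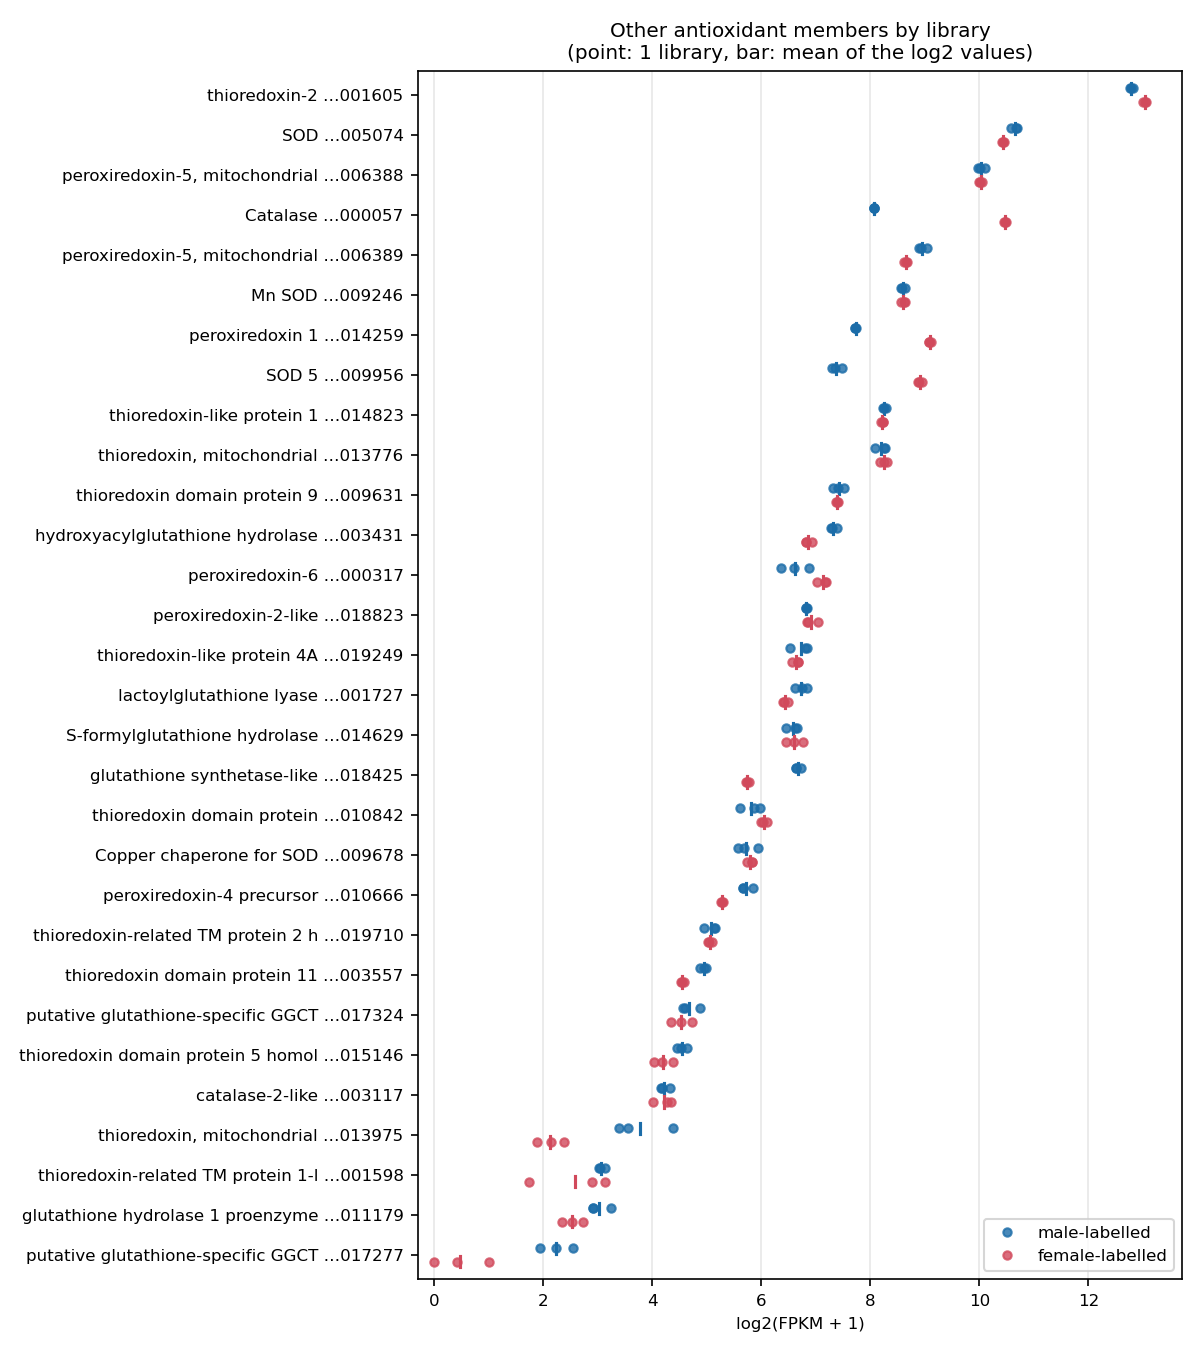
Level of the 30 tested antioxidant members other than transferases as log2(FPKM + 1), most abundant at the top, with male-labelled libraries above female-labelled ones. Points are libraries and bars their mean. Catalase, peroxiredoxin 1 and superoxide dismutase 5, lower in male-labelled libraries, stand apart from a majority whose groups lie close together. So do, in the other direction, the low cyclotransferase GWHGABGR017277 and the low mitochondrial thioredoxin GWHGABGR013975.

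The remaining members make, split or use glutathione. Of 7 tested, 4 were higher and 0 lower in the male-labelled libraries by limma (5 had an unadjusted p under 0.05), beside 27.8% and 9.03% of all tested genes. After rescaling 3 were higher and 1 lower, beside 14.3% and 17.7%. Glutathione synthetase (GWHGABGR018425), which adds the last residue of glutathione, had 98.3, 105.6 and 98.6 FPKM in male-labelled libraries, against 53.7, 51.9 and 52.2 FPKM in female-labelled ones. It rose by a log2 fold change of 0.93 (SE 0.06, limma adjusted p = 5.1e-06). A glutathione-specific gamma-glutamylcyclotransferase (GWHGABGR017277, symbol Chac1), which breaks glutathione down, had 3.68, 2.84 and 4.82 FPKM in male-labelled libraries, against 0.991, 0.326 and 0 FPKM in female-labelled ones (1.77, SE 0.29, limma adjusted p = 0.00188). It rests on 59 and 8 reads. The second cyclotransferase (GWHGABGR017324, symbol chac2) did not pass (24.7 ± 3.28 FPKM in male-labelled and 22.2 ± 2.99 FPKM in female-labelled libraries, 0.15).

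The glyoxalase pair uses glutathione to remove methylglyoxal. Lactoylglutathione lyase (GWHGABGR001727), which forms the conjugate, was higher as deposited (105.7 ± 7.71 and 85.5 ± 3.05 FPKM, male-labelled first; 0.30, limma adjusted p = 0.00823) and not after rescaling (0.05). Hydroxyacylglutathione hydrolase (GWHGABGR003431), which frees glutathione again, was higher on both scales (159 ± 5.60 and 115 ± 5.01 FPKM; 0.46, limma adjusted p = 0.000223, and 0.21 after rescaling). Glutathione hydrolase 1 (GWHGABGR011179), which cleaves glutathione outside the cell, averaged 7.16 ± 1.10 and 4.79 ± 0.775 FPKM and did not pass (0.49, limma adjusted p = 0.0535). S-formylglutathione hydrolase (GWHGABGR014629), of formaldehyde removal, averaged 94.4 ± 7.36 and 96.6 ± 10.5 FPKM and did not pass as deposited (-0.03), but was lower after rescaling (-0.29, limma adjusted p = 0.0376).

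Related genes were taken from name patterns, members left out. Of 69 found, 53 were tested, with 28 higher and 2 lower in the male-labelled libraries, beside 27.8% and 9.03% of all tested genes. After rescaling 17 were higher and 7 lower, beside 14.3% and 17.7%. Their median log2 fold change was 0.53, and 0.28 after rescaling. In the synthesis and turnover of glutathione 8 of 15 were higher and 0 lower as deposited. By unadjusted p 12 of the 15 were under 0.05, in either direction, and after rescaling 6 were higher and 3 lower. A pair of those higher as deposited (GWHGABGR012333 and GWHGABGR012334) are protein-glutamine gamma-glutamyltransferases of hemocytes, which crosslink proteins and do not make glutathione. The call of GWHGABGR012334 was lost after rescaling (0.59 in place of 0.77).

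Cystathionine beta-synthase (GWHGABGR015338), which leads sulfur toward cysteine, averaged 129.5 ± 5.53 FPKM in male-labelled and 78.0 ± 1.95 FPKM in female-labelled libraries (0.72, limma adjusted p = 1.73e-05). Cystathionine gamma-lyase (GWHGABGR007098), the next step and the most abundant gene of that list, had 458, 431 and 449 FPKM in male-labelled libraries, against 283, 281 and 264 FPKM in female-labelled ones (0.69, limma adjusted p = 5.43e-06). Another gene of that name (GWHGABGR007102) averaged 35.2 ± 2.47 and 9.65 ± 1.16 FPKM, male-labelled first (1.77, limma adjusted p = 6.27e-06). GWHGABGR007101, also of that name, averaged 4.43 ± 1.47 and 2.12 ± 0.485 FPKM and was higher as deposited (0.77, limma adjusted p = 0.0396). It did not pass after rescaling (0.58, limma adjusted p = 0.113). The other 2 tested genes of that name did not pass as deposited. GWHGABGR007103 averaged 61.8 ± 4.37 and 66.4 ± 4.62 FPKM (-0.10, limma adjusted p = 0.341) and was lower after rescaling (-0.36, limma adjusted p = 0.00721). GWHGABGR007100 averaged 38.0 ± 12.1 and 24.4 ± 2.18 FPKM (0.57, limma adjusted p = 0.0732). Of glutamate-cysteine ligase, the rate-limiting enzyme of glutathione synthesis, the regulatory subunit (GWHGABGR017079) was higher (14.6 ± 2.82 and 7.52 ± 0.537 FPKM; 0.86, limma adjusted p = 0.003). Its catalytic subunit (GWHGABGR014512) averaged 37.3 ± 2.23 and 41.1 ± 2.32 FPKM and did not pass as deposited (-0.14, limma adjusted p = 0.214), and was lower after rescaling (-0.39).

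**Figure D5:**
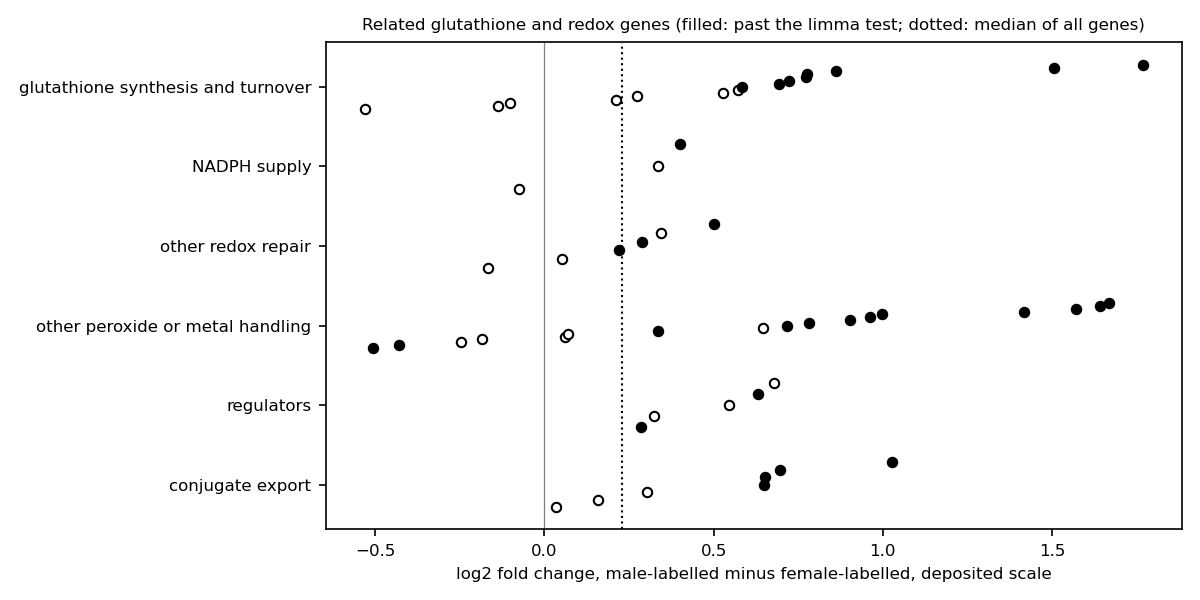
Log2 fold change (male-labelled minus female-labelled, deposited scale) of the 53 tested related genes by role. Filled points passed the limma test, and the dotted line is the median of all tested genes, 0.23. Filled points lie mostly to the right of that line, and the 2 filled points at the left are ferritins.

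Both lower genes of the related list were ferritin subunits, which store iron and so limit the iron available for radical formation. GWHGABGR020004 averaged 2494 ± 8.41 FPKM in male-labelled and 3542 ± 34.1 FPKM in female-labelled libraries (SD, n = 3 each; log2 fold change -0.51, limma adjusted p = 3.64e-07). GWHGABGR020005 averaged 3041 ± 9.77 and 4096 ± 120 FPKM (-0.43, limma adjusted p = 4.32e-06). Of the 17 tested genes for peroxide and metal handling, 10 were higher and 2 lower, beside 27.8% and 9.03% of all tested genes (7 and 2 after rescaling, beside 14.3% and 17.7%). Not all of them remove peroxide, since NADPH oxidases and dual oxidases make superoxide or hydrogen peroxide. NADPH oxidase 4-like (GWHGABGR010012) passed on neither scale (-0.19). Higher on both scales were NADPH oxidase 5 (GWHGABGR020555, 1.57) and dual oxidase genes GWHGABGR011260 (1.00) and GWHGABGR011261 (1.42). So was the dual oxidase maturation factor GWHGABGR011259 (0.78). The call of GWHGABGR011260 was lost without some single libraries. Among the higher was a peroxidase-like gene (GWHGABGR002192, 55.2 ± 3.10 and 16.9 ± 3.44 FPKM, male-labelled first; 1.67, limma adjusted p = 3.25e-05). Chorion peroxidase (GWHGABGR002102) was low in both (2.53 ± 0.663 and 0.123 ± 0.112 FPKM; 1.64, limma adjusted p = 0.000657).

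Exporters of the multidrug resistance-associated type, which can carry glutathione conjugates out of cells in mammals, had 4 of 7 tested genes higher and 0 lower, beside 27.8% and 9.03% of all tested genes (by unadjusted p, 4 were under 0.05). After rescaling 3 were higher and 0 lower, beside 14.3% and 17.7%. The most abundant (GWHGABGR014620) averaged 55.2 ± 3.12 FPKM in male-labelled and 34.8 ± 0.894 FPKM in female-labelled libraries (0.65, limma adjusted p = 0.000177). Among regulators, MafK-like (GWHGABGR001730), a partner of cap'n'collar proteins, was higher as deposited (86.8 ± 8.62 and 71.0 ± 5.92 FPKM; 0.29, limma adjusted p = 0.037) and not after rescaling (0.03). One of 4 cap'n'collar-like genes (GWHGABGR009727), named for the fly factor that drives antioxidant genes, was higher on both scales (16.0 ± 1.04 and 9.95 ± 0.44 FPKM; 0.63, limma adjusted p = 0.00243). In redox repair, the glutaredoxin-C4-like gene (GWHGABGR016482) was higher as deposited (759 ± 54.8 and 621.5 ± 32.3 FPKM; 0.29, limma adjusted p = 0.00535) and not after rescaling (0.03). For NADPH, the electron source of both systems, the most abundant malic enzyme (GWHGABGR001988) averaged 324 ± 11.9 and 341 ± 9.49 FPKM and did not pass as deposited (-0.08). It was lower after rescaling (-0.33, limma adjusted p = 0.000639). Of 3 tested NADPH supply genes, 1 was higher and 0 lower, beside 27.8% and 9.03% (0 and 1 after rescaling, beside 14.3% and 17.7%). Isocitrate dehydrogenase GWHGABGR014499, outside the related list, was higher on both scales (201 ± 8.75 and 147 ± 5.46 FPKM, 0.45, limma adjusted p = 0.000226). So was GWHGABGR010139, symbol Idh1 (0.64, limma adjusted p = 1.65e-05). GWHGABGR000331, symbol PGDH, did not pass as deposited (-0.17) and was lower after rescaling (-0.42).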

How the data were processed

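The authors deposited 1 table of FPKM per gene for 6 libraries. RNA was extracted with Trizol and made into stranded mRNA libraries, per the labels' protocols. Per the submitters' processing notes, the tools were Trimmomatic, HISAT2, HTSeq and R 3.2.0, with no role stated. Genome build: not given in the sources used here. No sequence was used here. Best-hit names come mostly from other moths, and reads of near-identical copies could have been split between them.

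Library totals and lengths were searched for values that turn the deposited FPKM into whole reads within 0.01 read, which worked for 16457 of 16458 genes. In the search, different multiples of the totals gave whole reads for 99.2% to 99.99% of genes. The multiple kept was the one whose recovered reads summed closest to the total (0.9947 of it). Totals, reads and their intervals rest on that choice. The shortest length of at least 90 bases was taken, so reads and length can be too low by a common factor. Among genes above 30 reads, 87.9% had a length divisible by 3, hence the term coding length. Libraries of a label differed by more than read sampling (mean chi-square per gene 3.08 to 3.99).

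limma 3.58.1 in R 4.3.3 was fitted on log2(FPKM + 1) of all libraries, with label as the only term, a mean-variance trend, 2-sided tests and adjustment over all tested genes. Because the deposited values are FPKM, no count model was used. The named genes are every tested member, and for related genes the most abundant of each role and the 3 largest changes each way past the test; other related and antennal genes were chosen after their values were seen. The members and lists were chosen with earlier results of these data known.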

Additional observations from a re-analysis of the deposited data

How the results depend on the processing

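Scaling moved the counts most. After median-of-ratios rescaling 1652 genes were higher and 2040 lower in the male-labelled libraries, and after quantile normalization 1636 and 1688, against 3227 and 1047 as deposited. Rescaling gave 1 higher transferase, 4 higher and 14 lower other members, and 17 higher and 7 lower related genes (7 lower with quantile normalization too). Higher transferases numbered 1 in place of 3 with no filter on low values, with no variance trend and with quantile normalization. Among members called on at least 1 of both scales, signs turned after rescaling for GWHGABGR005074 (-0.0472), GWHGABGR006388 (-0.25), GWHGABGR009631 (-0.23), GWHGABGR014823 (-0.22), GWHGABGR014982 (-0.20) and GWHGABGR016654 (-0.14). They also turned for GWHGABGR003117 (-0.23), GWHGABGR017324 (-0.10), GWHGABGR019249 (-0.17) and GWHGABGR019710 (-0.24), which passed on neither scale. The rescaling divided male-labelled libraries by 1.094 to 1.113 and female-labelled ones by 0.9166 to 0.9294. It thus lowered every male-labelled value against the female-labelled ones. Why these factors differed between the labels was not tested. The 18 members called alike on both scales kept their call under all 13 alternatives that gave them a value. Rescaling is 1 of these alternatives, so the outcome there was fixed by how the 18 were picked.

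Leaving out 1 library at a time gave 1 to 3 higher (1 without male-labelled replicate 1) and 8 lower transferases, 9 to 10 higher and 5 to 6 lower other members, and 21 to 26 higher and 2 to 3 lower related genes. Over all genes it gave 2566 to 2739 higher and 877 to 954 lower. Shares of total FPKM moved by less than 1 SD. Replicate numbers do not pair the libraries (same-numbered correlations of deviations -0.0038 to 0.0059). With a replicate block, 3 transferases were higher and 8 lower, 9 other members higher and 5 lower, and 28 related genes higher and 2 lower. Depth limits members with few reads, such as GWHGABGR016652, GWHGABGR016656 and GWHGABGR017277.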

Other observations

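Genes outside the members also carry transferase annotation; they were looked up after the values of the members had been seen. Of 13 genes with the deposited gene ontology term for glutathione transferase activity but another best-hit name, 10 were tested, with 3 higher and 3 lower in the male-labelled libraries, beside 27.8% and 9.03% of all tested genes. After rescaling 3 were higher and 5 lower, beside 14.3% and 17.7%. GWHGABGR011369 (symbol GST1, best hit uncharacterized) had 11.8, 9.87 and 9.09 FPKM in male-labelled libraries, against 41.9, 39.4 and 49.1 FPKM in female-labelled ones (log2 fold change -1.98 with SE 0.13, limma adjusted p = 5.68e-06). Pyrimidodiazepine synthase-like genes, whose fly counterpart is an omega-class transferase of eye pigment synthesis, split. GWHGABGR017855 averaged 5.37 ± 0.434 FPKM in male-labelled and 14.02 ± 0.371 FPKM in female-labelled libraries (SD, n = 3 each; -1.24, limma adjusted p = 0.000101). GWHGABGR017856 averaged 225.5 ± 13.4 and 154.8 ± 10.5 FPKM, male-labelled first (0.54, limma adjusted p = 0.000293). Maleylacetoacetate isomerase 2 (GWHGABGR017535), of the zeta class and tyrosine breakdown, averaged 34.5 ± 1.70 and 21.3 ± 3.68 FPKM (0.68, limma adjusted p = 0.00326).

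A gene described as POX-A with the symbol GPX4 (GWHGABGR003131), the symbol of a glutathione peroxidase, was not a member by its description. It had 532, 482 and 505 FPKM in male-labelled libraries, against 1164, 1143 and 1080 FPKM in female-labelled ones (log2 fold change -1.16 with SE 0.05, limma adjusted p = 2.43e-07). Catalase GWHGABGR000057 and peroxiredoxin 1 had the same direction, while peroxiredoxin-4 and the peroxiredoxin-5 gene GWHGABGR006389 were higher as deposited. Another gene of that description and symbol (GWHGABGR003132) averaged 5.57 ± 1.40 and 8.06 ± 1.22 FPKM, male-labelled first. It did not pass as deposited (-0.48, limma adjusted p = 0.0946) and was lower after rescaling (-0.70, limma adjusted p = 0.0271).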
